A study of Mus musculus and Homo sapiens with 67 samples.

Results

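The genes described here are 10 components of cytokine signalling through JAK kinases and STAT factors. They were chosen by name, with earlier results of these data known. They are the receptor chains IL6ST and OSMR and the kinases JAK1 and JAK2. With them are the transcription factors STAT3 and STAT5A and the feedback inhibitors SOCS1, SOCS2, SOCS3 and CISH. All 10 were found once in each of 4 deposited expression tables, which hold 60564 genes for the human lines and 55335 for the mouse models. The tables cover 52 of 67 labelled RNA-seq samples from pancreatic cancer models. The other 15, tumours grown under the skin, are not analysed here. Human cells were the established pancreatic cancer lines PSN1 and SW1990. KPC cells are mouse pancreatic cancer cells and were also grown as tumours in the pancreas of mice. Each model had 4 arms: the combination of tazemetostat and RMC-6236, RMC-6236 alone, tazemetostat alone, and control (DMSO for cells, vehicle for mice). RMC-6236 inhibits RAS proteins in their active state, and tazemetostat inhibits EZH2, the histone methyltransferase of polycomb repressive complex 2. Each arm had 3 cell samples or 4 tumours. The labels give no dose, treatment time, host strain or age, and do not say whether the 3 cell samples of an arm came from separate cultures. The p-values for cells therefore reflect sample-to-sample spread alone, which may be technical. The tumour columns are headed KPC1199 and the cell columns KPC, and whether both are the same clone is not stated.

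Cytokines of the interleukin 6 family bind a private receptor chain, such as OSMR for oncostatin M, together with the shared chain IL6ST (gp130). The receptors hold JAK kinases, which phosphorylate STAT factors. The STATs then enter the nucleus and switch on genes that include their own inhibitors. SOCS3 binds gp130 and JAKs and shuts down STAT3 signalling, SOCS1 blocks JAKs mainly below interferon receptors, and CISH and SOCS2 are classical STAT5 targets that restrain growth hormone and related receptors. RNA levels of these genes do not measure STAT phosphorylation.

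In the human files SOCS3 is ENSG00000184557, SOCS1 ENSG00000185338, SOCS2 ENSG00000120833, CISH ENSG00000114737, STAT3 ENSG00000168610, STAT5A ENSG00000126561, JAK1 ENSG00000162434, JAK2 ENSG00000096968, OSMR ENSG00000145623 and IL6ST ENSG00000134352. Libraries had 11489 to 12772 genes at 1 FPKM or more in the human lines. The range was 11673 to 11947 for cultured KPC cells, against 12386 to 13414 for tumours. All 6 epithelial markers reached 1 FPKM in every table. Markers of other cell types were also present in the cultured lines. In PSN1 cells 6 of 8 fibroblast markers reached 1 FPKM, and their sum was 119 to 122 FPKM with the combination, 116 to 118 with RMC-6236, 43.6 to 45.2 with tazemetostat and 29.5 to 29.8 in control. For SW1990 cells 2 of 8 did, with sums of 25.3 to 28.4, 3.88 to 4.71, 2.55 to 2.88 and 0.909 to 1.22 FPKM in the same order of arms, and for KPC cells 4 of 8, with 52.8 to 55.9, 65.3 to 66.4, 40 to 41.9 and 41.4 to 42.4 FPKM. Neutrophil markers, of which 3, 3 and 1 of 6 reached 1 FPKM, summed in that order of arms to 99.8 to 108, 12.3 to 14.3, 95.5 to 96.1 and 14.6 to 15.8 FPKM in PSN1 cells, to 290 to 298, 166 to 173, 254 to 266 and 168 to 182 FPKM in SW1990 cells, and to 239 to 252, 122 to 128, 93.3 to 94.1 and 75.3 to 83.1 FPKM in KPC cells. Macrophage markers, of which 2, 1 and 3 of 8 reached 1 FPKM, were also present. Over all arms they summed to 15.5 to 33.9 FPKM in PSN1, 36 to 64.3 in SW1990 and 70.9 to 90 in KPC cells. Acinar markers summed to 20.3 to 66.7, 2.21 to 13.2 and 2.53 to 4.77 FPKM in the same order of lines. In each line 2 of 6 acinar markers reached 1 FPKM. The acinar sum in PSN1 cells was 20.3 to 22.4 FPKM with the combination and 63 to 66.7 with RMC-6236. It was 27.5 to 29.5 FPKM with tazemetostat and 61 to 63 in control. PRSS2 alone ranged from 19.2 to 65.5 FPKM there. Of 5 endothelial markers 2 reached 1 FPKM in PSN1 cells and 0 in SW1990 and KPC cells. In PSN1 cells the endothelial sum was 2.21 to 2.7 FPKM with the combination and 2.25 to 2.49 with RMC-6236. It was 5.4 to 5.57 FPKM with tazemetostat and 5.34 to 6.11 in control. No T cell or B cell marker reached 1 FPKM in the 3 lines. The part of these marker levels in the results was not tested.

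Levels are FPKM as the authors deposited them, fragment counts scaled for transcript length and library size, so genes of 1 table can be compared per length. In control PSN1 cells the receptor chains led, with IL6ST at 44.3 ± 1.4 FPKM and OSMR at 34.6 ± 0.76 FPKM (mean ± SD, n = 3), followed by SOCS3 at 20.9 FPKM and STAT3 at 13.6 FPKM. Control SW1990 cells held IL6ST at 12.4 ± 1.6 FPKM, and the next levels, SOCS3 at 9.07 ± 0.34 FPKM and STAT3 at 9.02 ± 0.29 FPKM, overlapped. In the mouse models SOCS3 had the highest level of the 10 genes. Control KPC cells held Socs3 at 50.1 ± 2.4, Stat3 at 25.3 ± 0.9 and Jak2 at 21.9 ± 1.1 FPKM, and control tumours held Socs3 at 61.5 ± 4.4, Stat3 at 27.2 ± 0.9 and Jak2 at 18.7 ± 1.6 FPKM (n = 4). CISH and SOCS2 were low in the human controls, at 0.641 and 0.201 FPKM in PSN1 cells and 0.443 and 0.342 FPKM in SW1990 cells. Neighbours whose control ranges overlapped were SOCS1 and CISH in PSN1 cells, SOCS1 and JAK2 as well as STAT5A, CISH and SOCS2 in SW1990 cells, and Osmr and Socs2 in KPC cells. In control tumours Il6st overlapped with Socs1, and Stat5a, Osmr and Socs2 overlapped in turn.

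A gene was tested where at least 3 libraries of a cell table, or 4 of the tumour table, reached 1 FPKM. By that filter 10 of the 10 genes were tested in PSN1 cells, 8 in SW1990 cells, 9 in KPC cells and 10 in tumours. SOCS2 in PSN1 cells passed through the combination arm alone, and STAT5A in SW1990 cells passed through the combination and 1 library with RMC-6236, so a difference involving those arms was built into their passing. SW1990 cells had 0.278 to 0.544 FPKM of SOCS2 and 0.167 to 0.496 FPKM of CISH over the 12 libraries, below the filter. KPC cells had Cish at 0.756 to 0.849 FPKM with the combination, 0.885 to 1.14 with RMC-6236, 0.568 to 0.586 with tazemetostat and 0.598 to 0.802 in control, also below it.

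Changes are differences of log2(FPKM + 1) with their standard error, from limma fits of the 4 arms of a table. P-values are adjusted over all genes tested, and a change is called at an adjusted p under 0.05. The log2(FPKM + 1) scale understates changes of low genes. RMC-6236 against control gave 9 calls among the 10 genes in PSN1 cells, 7 higher and 2 lower, where 80.4% of all genes tested were called (45.8% higher, 34.6% lower). In SW1990 cells it gave 6 calls among 8, 3 higher and 3 lower, against 72.4% of all genes (30.7% higher, 41.7% lower), and in KPC cells 7 among 9, 5 higher and 2 lower, against 73.7% (37.9% higher, 35.8% lower). In tumours it gave 6 calls among 10, 3 higher and 3 lower, against 39.4% (20.3% higher, 19.2% lower). These counts are near the background in the cell lines, so the direction and size of each gene's change carry the description below. The higher calls include SOCS1, SOCS2 and CISH in PSN1 cells and STAT5A in SW1990 cells. These genes stayed under 1 FPKM in every control library and passed the filter through treated arms alone. Their calls therefore describe where they were high. In SW1990 cells 42.4% of all genes called with RMC-6236 were higher, and 53.4% after libraries were rescaled by their median ratio, which shifted the median of all genes by 0.10.

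**Figure D1:**
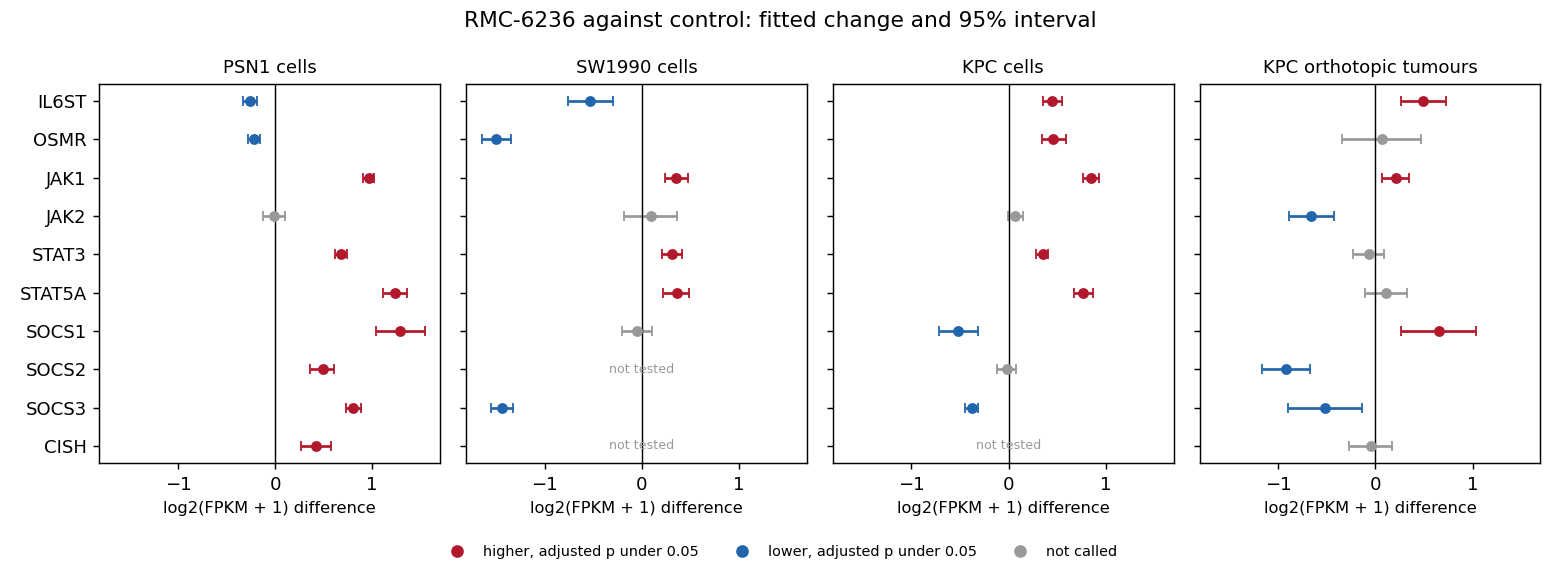
Change with RMC-6236 against control for each of the 10 genes (rows) in the 4 models (panels), as the fitted log2(FPKM + 1) difference with its 95% interval. Red points are called higher, blue points called lower and grey points not called. JAK1 lies above 0 in all 4 panels, while SOCS3 lies above 0 in PSN1 cells and below 0 in the other 3 panels.

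The receptor chains moved in opposite directions in the human lines and in KPC cells. On the log2(FPKM + 1) scale, OSMR had the largest change, in SW1990 cells. Its levels were 1.58, 1.88 and 1.90 FPKM with RMC-6236, against 6.13, 7.46 and 7.15 FPKM in control. The ranges do not overlap, and OSMR fell by 1.5 on the log2 scale (SE 0.07, adjusted p = 4.2e-10). In PSN1 cells OSMR was at 29.8, 29.7 and 29.3 FPKM with RMC-6236, against 34.8, 35.2 and 33.7 FPKM in control, a small fall of 0.22 (SE 0.03, adjusted p = 7e-06). KPC cells held Osmr at 5.10, 5.58 and 5.36 FPKM with RMC-6236 and at 3.35, 3.64 and 3.83 FPKM in control, and here it rose (0.46 ± 0.06, adjusted p = 8.6e-06).

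IL6ST, the signalling chain shared by the family, followed the same split. It fell to 38.6, 35.1 and 36.9 FPKM with RMC-6236 in PSN1 cells, against 42.9, 45.6 and 44.5 FPKM in control (-0.26 ± 0.03, adjusted p = 1.3e-05). SW1990 cells had 6.67, 9.55 and 8.68 FPKM with RMC-6236 and 10.5, 13.4 and 13.3 FPKM in control (-0.53 ± 0.11, adjusted p = 0.0006). Replicate 1 was the lowest of its arm in both groups. In KPC cells Il6st rose to 10.1, 9.85 and 10.4 FPKM, against 6.58, 7.48 and 7.32 FPKM in control (0.45 ± 0.05, adjusted p = 1.1e-06). Tables were normalized apart, so the difference in direction between models was not tested.

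JAK1, the kinase used by gp130 and interferon receptors alike, rose with RMC-6236 in all 4 models, with a tumour call that 2 single libraries end. PSN1 cells had 24.6, 24.3 and 23.9 FPKM with RMC-6236, against 12.1, 12 and 11.6 FPKM in control (0.97 ± 0.03, adjusted p = 2.1e-12). KPC cells had 27.6, 29.0 and 30.6 FPKM with RMC-6236, against 16.1, 15.7 and 15.3 FPKM in control (0.85 ± 0.04, adjusted p = 3.2e-10). In SW1990 cells the rise was smaller, to 6.66, 7.47 and 7.73 FPKM against 5.34, 5.37 and 5.72 FPKM in control (0.35 ± 0.05, adjusted p = 4.4e-05). JAK2, which serves hormone-type receptors as well as gp130, did not pass the test in any of the 3 cell lines, with 95% intervals of -0.12 to 0.10 in PSN1, -0.18 to 0.36 in SW1990 and -0.01 to 0.15 in KPC cells. Without KPC control replicate 3, Jak2 was called higher at 0.11 (adjusted p = 0.0078).

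STAT5A and STAT3 rose with RMC-6236 in all 3 cell lines. STAT5A, which carries signals of growth hormone, prolactin and interleukins, reached 3.90, 4.10 and 3.85 FPKM in PSN1 cells with RMC-6236, against 1.15, 1.02 and 1.14 FPKM in control (1.23 ± 0.06, adjusted p = 4.3e-10). KPC cells had Stat5a at 9.28, 9.77 and 9.28 FPKM with RMC-6236 and 5.02, 5.08 and 5.28 FPKM in control (0.77 ± 0.05, adjusted p = 6.2e-09). SW1990 levels were low, at 0.907, 0.917 and 1.02 FPKM with RMC-6236 and 0.542, 0.420 and 0.602 FPKM in control (0.36 ± 0.06, adjusted p = 0.0002). There STAT5A passed the filter through treated arms alone, so this call describes where it was high. STAT5A has a close paralog, STAT5B, and how reads shared by both were assigned is not stated. STAT5B itself rose by 0.47 in PSN1 cells and by 0.32 in KPC cells and fell by 0.30 in SW1990 cells.

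**Figure D2:**
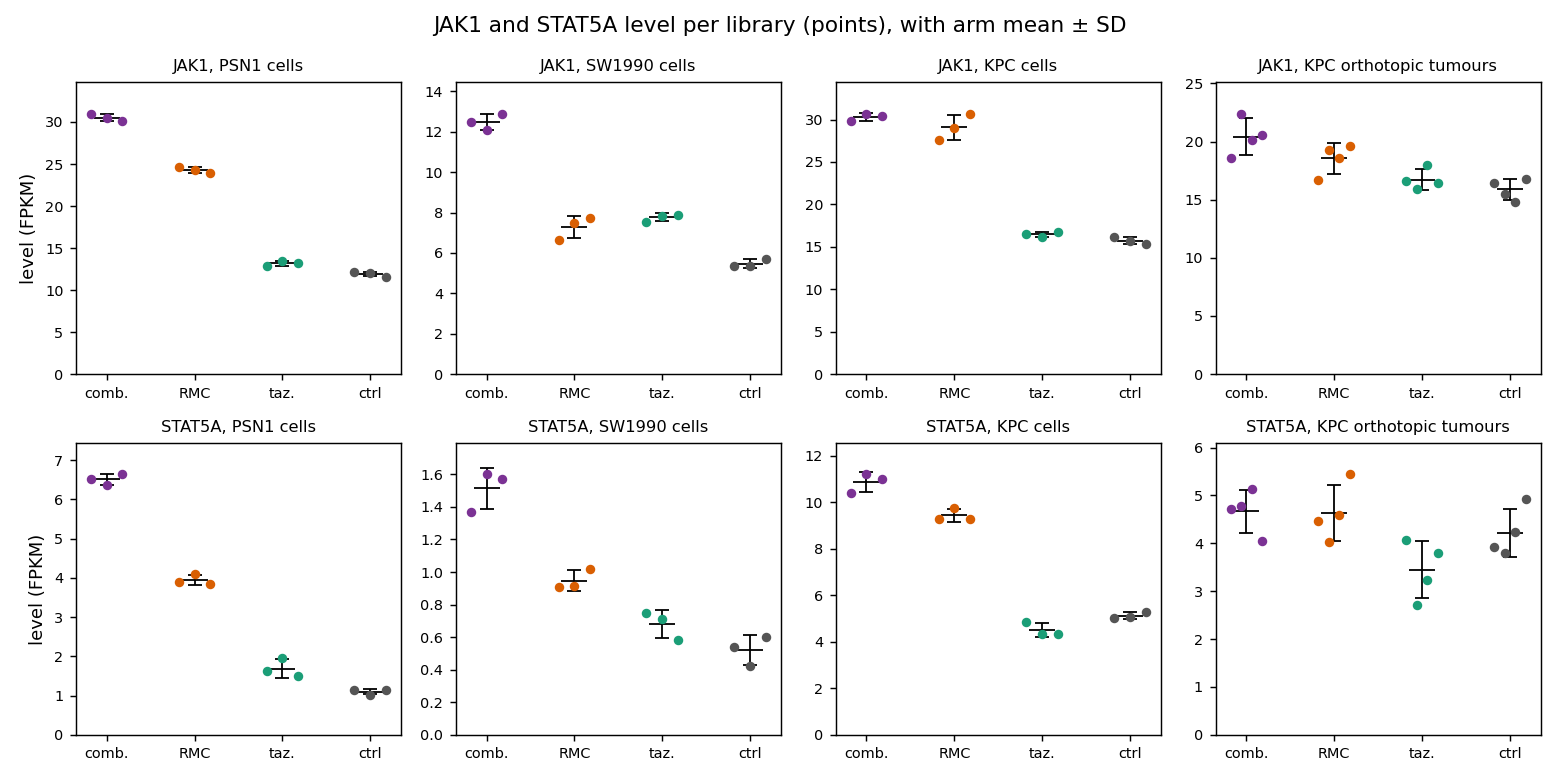
JAK1 (upper row) and STAT5A (lower row) level in FPKM in each library of the 4 models, by arm: combination (comb.), RMC-6236 (RMC), tazemetostat (taz.) and control (ctrl). Points are libraries, black marks the mean ± SD, each axis has its own scale, and levels of different tables are not comparable. In cells both genes are higher with the combination than in control, such as JAK1 at 30.5 FPKM against 11.9 FPKM in PSN1 cells, while Jak1 in KPC cells overlaps between the combination and RMC-6236.

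STAT3, the main effector of gp130, had 23.1, 22.0 and 22.3 FPKM with RMC-6236 in PSN1 cells, against 13.9, 13.6 and 13.4 FPKM in control (0.68 ± 0.03, adjusted p = 1.7e-10). SW1990 cells had 10.7, 11.5 and 12.1 FPKM, against 9.07, 8.70 and 9.28 FPKM in control (0.31 ± 0.05, adjusted p = 3.7e-05). KPC cells had 31.9, 32.3 and 33.1 FPKM, against 24.6, 26.3 and 25.0 FPKM in control (0.35 ± 0.03, adjusted p = 5e-07). The ranges of both arms were apart in each line.

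SOCS3 and CISH are inhibitors induced by STAT factors, and their mouse promoters are shown because both hold the STAT recognition pattern TTCNNNGAA. Sequences are RefSeq windows of GRCm38.p6, from 250 bases before to 50 after an annotated start, read 5′ to 3′ on the gene's strand, with the pattern in capitals. The Cish window lies at chr9:107296409-107296708 on the plus strand and the Socs3 window at chr11:117969317-117969616 on the minus strand.
Cish: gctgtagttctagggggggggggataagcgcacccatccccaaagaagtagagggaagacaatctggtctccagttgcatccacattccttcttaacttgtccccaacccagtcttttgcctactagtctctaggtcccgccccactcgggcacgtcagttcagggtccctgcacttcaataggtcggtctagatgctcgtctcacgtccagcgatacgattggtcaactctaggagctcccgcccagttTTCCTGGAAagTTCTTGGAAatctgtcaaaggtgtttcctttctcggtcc
Socs3: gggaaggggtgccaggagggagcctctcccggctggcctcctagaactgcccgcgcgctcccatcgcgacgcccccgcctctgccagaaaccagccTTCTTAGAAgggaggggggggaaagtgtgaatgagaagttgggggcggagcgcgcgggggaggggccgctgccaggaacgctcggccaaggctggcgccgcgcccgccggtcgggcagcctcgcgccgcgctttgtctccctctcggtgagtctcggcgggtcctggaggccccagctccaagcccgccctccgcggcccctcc
The Cish window holds 2 matches, TTCCTGGAA and TTCTTGGAA, which start at positions 251 and 262 of the window. The Socs3 window holds 1 match, TTCTTAGAA, which starts at position 97. The pattern reads the same on both strands. It occurs in 2726 of 32851 promoter windows (8.3%), and 0.457% hold 2 or more. Of the 10 genes, 9 matched the promoter table by symbol, with 10 windows in all, and the windows of Cish and Socs3 were the ones with a match. Socs2 had no entry. A match is a description of letters and not evidence of binding.

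SOCS3 went opposite ways in the human lines with RMC-6236. In PSN1 cells it rose to 36.2, 37.4 and 38.2 FPKM, against 22.3, 20.5 and 19.9 FPKM in control (0.80 ± 0.03, adjusted p = 2.2e-10). SW1990 cells had 2.65, 2.78 and 2.67 FPKM with RMC-6236, against 9.44, 8.78 and 9 FPKM in control, and SOCS3 fell by 1.44 (SE 0.05, adjusted p = 3.2e-11). KPC cells had 37.3, 39.1 and 38.4 FPKM with RMC-6236, against 49.3, 48.2 and 52.9 FPKM in control, a fall of 0.38 (SE 0.03, adjusted p = 3.7e-07). Libraries of an arm lay close together and the arms were apart in all 3 lines. The combination and tazemetostat arms had 48.8, 48.5 and 47.7 FPKM and 26.2, 26.0 and 26.4 FPKM in PSN1 cells, and 4.91, 4.54 and 4.97 FPKM and 6.54, 7.27 and 6.80 FPKM in SW1990 cells.

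**Figure D3:**
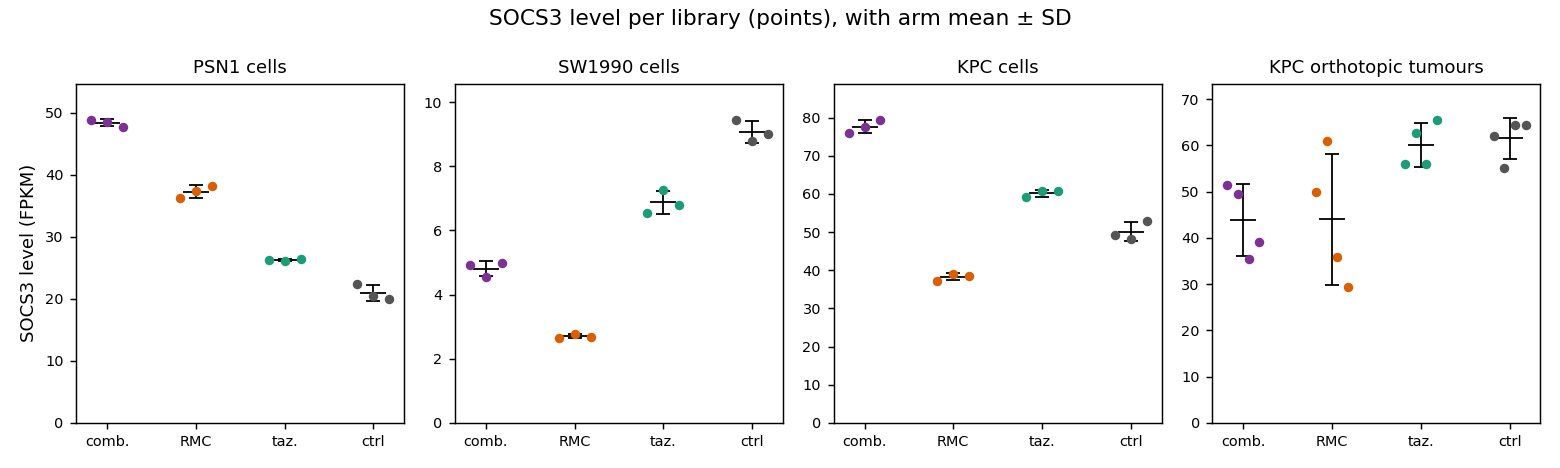
SOCS3 level in FPKM (vertical axis) in each library of the 4 models, by arm: combination (comb.), RMC-6236 (RMC), tazemetostat (taz.) and control (ctrl). Points are libraries, black marks the mean ± SD, and each panel has its own scale. In KPC cells the combination stands highest at 77.7 FPKM and RMC-6236 lowest at 38.3 FPKM, while in SW1990 cells control stands highest at 9.07 FPKM.

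SOCS1, an inhibitor of JAK kinases, rose in PSN1 cells to 2.35, 3.83 and 3.19 FPKM with RMC-6236, against 0.675, 0.721 and 0.606 FPKM in control (1.29 ± 0.11, adjusted p = 3.9e-07). It fell in KPC cells, to 1.67, 1.70 and 2.07 FPKM against 3.33, 2.67 and 3.13 FPKM in control (-0.52 ± 0.09, adjusted p = 0.00019). SW1990 cells gave no call (interval -0.20 to 0.10). PSN1 cells had CISH at 1.33, 1.01 and 1.27 FPKM with RMC-6236 and 0.699, 0.523 and 0.700 FPKM in control (0.42 ± 0.07, adjusted p = 0.00012). SOCS2 in the same cells had 0.765, 0.641 and 0.646 FPKM, against 0.174, 0.199 and 0.232 FPKM in control (0.49 ± 0.06, adjusted p = 5.4e-06), all under 1 FPKM. SOCS1 and CISH, like SOCS2, stayed under 1 FPKM in every PSN1 control library and passed the filter through treated arms alone, so their calls against control are descriptions of where they were high. For KPC cells Socs2 was at 3.55, 3.44 and 3.50 FPKM with RMC-6236 and 3.58, 3.44 and 3.66 FPKM in control, with no call (interval -0.12 to 0.08).

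Tazemetostat alone raised SOCS3 in PSN1 and KPC cells and lowered it in SW1990 cells. In PSN1 cells tazemetostat gave 8 calls among the 10 genes, all 8 higher, where 46% of all genes tested were called (23.6% higher, 22.5% lower). SOCS1, SOCS2 and CISH are among the 8. They stayed under 1 FPKM in every control library and passed the filter through treated arms alone. Their calls therefore describe where they were high. SOCS1 reached 1.46, 1.62 and 1.85 FPKM with tazemetostat, against 0.675, 0.721 and 0.606 FPKM in control (0.66 ± 0.11, adjusted p = 0.00048). SOCS3 rose by 0.31 ± 0.03 and JAK2 by 0.39 ± 0.05. JAK2 was at 4.89, 5.21 and 4.95 FPKM with tazemetostat and 3.25, 3.69 and 3.81 FPKM in control. In SW1990 cells 2 of 8 genes were called, 1 higher and 1 lower, where 37.5% of all genes were (23.1% higher, 14.4% lower). JAK1 rose to 7.54, 7.85 and 7.90 FPKM with tazemetostat, against 5.34, 5.37 and 5.72 FPKM in control (0.44 ± 0.05, adjusted p = 3.1e-05), and SOCS3 fell (-0.36 ± 0.05, adjusted p = 0.00012).

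KPC cells gave 5 calls among 9 genes with tazemetostat, 2 higher and 3 lower, against 44.1% of all genes (18.6% higher, 25.5% lower). Socs2 rose to 4.84, 5.46 and 5.23 FPKM, against 3.58, 3.44 and 3.66 FPKM in control (0.44 ± 0.05, adjusted p = 9.3e-06). Socs3 rose to 59.2, 60.7 and 60.7 FPKM, against 49.3, 48.2 and 52.9 FPKM in control (0.26 ± 0.03, adjusted p = 6e-05). Il6st fell by 0.18 ± 0.05 (adjusted p = 0.0071). The falls of Stat5a (-0.16, adjusted p = 0.014) and Jak2 (-0.10, adjusted p = 0.039) were not called without control replicate 3 or tazemetostat replicate 2, nor without tazemetostat replicate 3 for Stat5a or replicate 1 for Jak2, with adjusted p of 0.052 to 0.17. The Jak2 call was also lost with no filter (adjusted p = 0.073), median-ratio scaling (0.088), eBayes without trend and robust (0.055) and only the compared arms (0.092). Without control replicate 3 the count of calls was 3.

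Adding tazemetostat to RMC-6236 raised SOCS3 in all 3 cell lines. Combination against RMC-6236 gave 9 calls among 10 genes in PSN1 cells, 8 higher and 1 lower, against 54.2% of all genes (24.1% higher, 30.1% lower). It gave 5 among 8 in SW1990 cells, all 5 higher, against 48% of all genes (29.8% higher, 18.3% lower), and 7 among 9 in KPC cells, 6 higher and 1 lower, against 48.8% (20.3% higher, 28.5% lower). These calls include SOCS2 in PSN1 cells, which passed the filter through the combination alone. They also include STAT5A in SW1990 cells, which passed through the combination and 1 library with RMC-6236. KPC cells had Socs3 at 76.0, 77.6 and 79.4 FPKM with the combination, against 37.3, 39.1 and 38.4 FPKM with RMC-6236 (1 ± 0.03, adjusted p = 2.5e-10). In SW1990 cells SOCS3 had 4.91, 4.54 and 4.97 FPKM with the combination, against 2.65, 2.78 and 2.67 FPKM with RMC-6236 (0.65 ± 0.05, adjusted p = 2.8e-07). PSN1 cells had 48.8, 48.5 and 47.7 FPKM with the combination, against 36.2, 37.4 and 38.2 FPKM with RMC-6236 (0.37 ± 0.03, adjusted p = 1.6e-06).

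STAT3 was also higher in all 3 lines and STAT5A in PSN1 and KPC cells. JAK1 was not called in KPC cells and JAK2 not in SW1990 cells (interval -0.13 to 0.40). In SW1990 cells mean STAT5A was 1.51 FPKM with the combination and 0.946 FPKM with RMC-6236. It passed the filter mostly through the combination, so its call there describes where it was high. STAT3 was higher with the combination than with RMC-6236 by 0.33 ± 0.03 in PSN1 cells, 0.43 ± 0.05 in SW1990 cells and 0.23 ± 0.03 in KPC cells. JAK1 reached 12.5, 12.1 and 12.9 FPKM with the combination in SW1990 cells, against 6.66, 7.47 and 7.73 FPKM with RMC-6236 (0.71 ± 0.05, adjusted p = 1.9e-07). In PSN1 cells JAK2 reached 5.93, 5.97 and 6.36 FPKM with the combination, against 3.69, 3.41 and 3.54 FPKM with RMC-6236 (0.64 ± 0.05, adjusted p = 2.4e-07), and STAT5A rose by 0.60 ± 0.06. In KPC cells Osmr reached 8.64, 8.72 and 8.18 FPKM with the combination, against 5.10, 5.58 and 5.36 FPKM with RMC-6236 (0.58 ± 0.06, adjusted p = 3.7e-06), and Jak1 was not called (interval -0.02 to 0.14). The genes that fell were IL6ST in PSN1 cells (-0.20 ± 0.03) and Socs2 in KPC cells (-0.24 ± 0.05). IL6ST in SW1990 cells was called higher at 0.28 ± 0.11 (adjusted p = 0.047), but not without RMC-6236 replicate 1 or 3 or any single combination replicate (adjusted p of 0.055 to 0.18), and the value was 0.15 without RMC-6236 replicate 1. It was not called with no filter (0.14), eBayes without trend and robust (0.056) or only the compared arms (0.058). SOCS1 was called at 0.34 in PSN1 cells but not without RMC-6236 replicate 1, where it was 0.20, or without combination replicate 2 or 3, nor with no filter (adjusted p = 0.068) or only the compared arms (0.073). Socs1 in KPC cells was called at 0.26 but not without RMC-6236 replicate 1 or 2 or combination replicate 2 or 3, nor with no filter (adjusted p = 0.082).

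**Figure D4:**
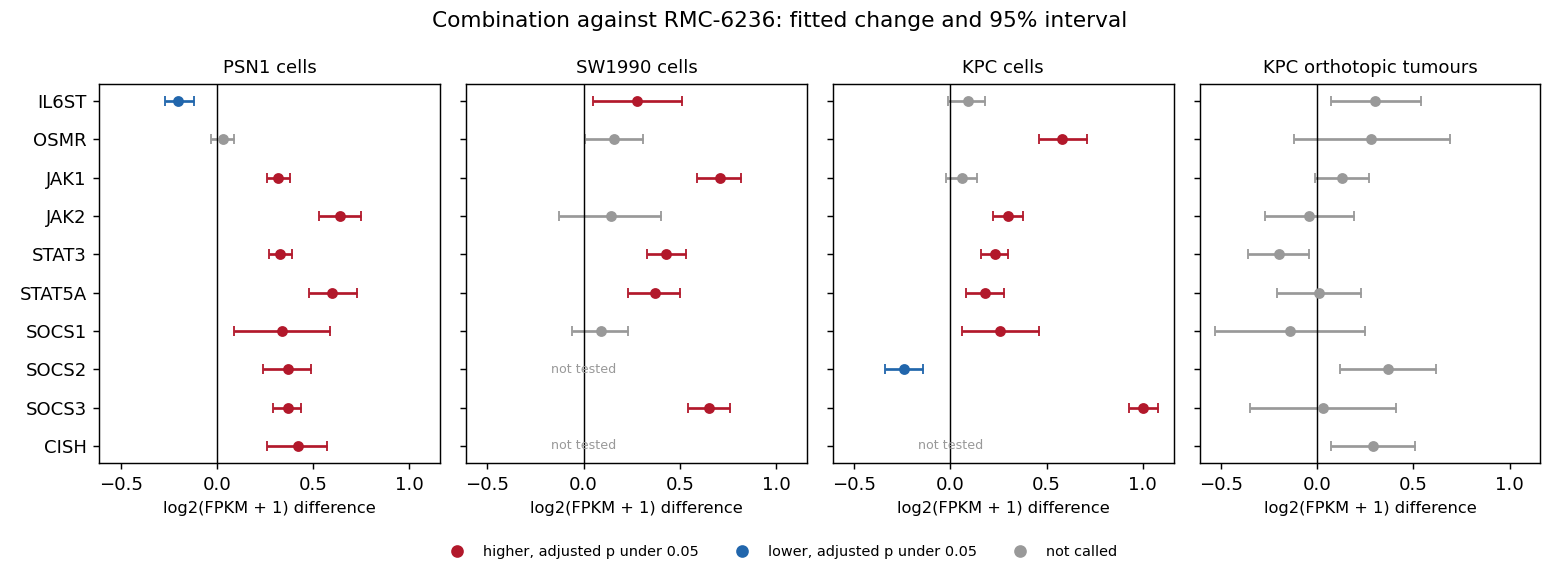
Change with the combination against RMC-6236 for each of the 10 genes (rows) in the 4 models (panels), as the fitted log2(FPKM + 1) difference with its 95% interval. Red points are called higher, blue points called lower and grey points not called. SOCS3 lies at 0.37, 0.65 and 1 in PSN1, SW1990 and KPC cells, and none of the tumour points is called.

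Whether the effect of RMC-6236 differed with and without tazemetostat was tested as an interaction, the difference of combination and tazemetostat minus the difference of RMC-6236 and control. KPC cells gave 7 calls among 9 genes, 6 higher and 1 lower, against 25.8% of all genes (12.1% higher, 13.7% lower). SW1990 cells gave 3 among 8, all higher, against 15.2% (9.03% higher, 6.19% lower). PSN1 cells gave 5 among 10, 4 higher and 1 lower, against 23.6% (9.8% higher, 13.8% lower), and 3 without control replicate 3, tazemetostat replicate 1 or 3, or combination replicate 3. Socs3 in KPC cells had an interaction of 0.74 ± 0.05 (adjusted p = 2.4e-07): it was at 76.0, 77.6 and 79.4 FPKM with the combination and 59.2, 60.7 and 60.7 FPKM with tazemetostat, above it, whereas RMC-6236 alone lay below control. For SOCS3 in SW1990 cells it was 1.01 ± 0.07 (adjusted p = 1.3e-06), and in PSN1 cells it was not called (interval -0.05 to 0.16). Socs2 in KPC cells had the opposite sign, at -0.68 ± 0.07 (adjusted p = 7.7e-06), with 2.69, 2.83 and 2.87 FPKM with the combination and 4.84, 5.46 and 5.23 FPKM with tazemetostat. STAT3 had a positive interaction in all 3 lines, 0.15 ± 0.04 in PSN1, 0.53 ± 0.06 in SW1990 and 0.19 ± 0.05 in KPC cells. The PSN1 calls for STAT5A (0.25) and JAK2 (0.24) and the SW1990 call for JAK1 (0.27) were lost in 9, 6 and 5 of the 12 fits that left out a library, with adjusted p up to 0.086, 0.06 and 0.078.

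Against control, the combination gave calls for 10 of 10 genes in PSN1 cells (8 higher, 2 lower), 6 of 8 in SW1990 cells (3 and 3) and 9 of 9 in KPC cells (7 and 2). Over all genes tested 82.6% were called in PSN1 cells (45.5% higher, 37.1% lower), 79.2% in SW1990 cells (38.3% higher, 40.9% lower) and 76.4% in KPC cells (37.8% higher, 38.7% lower). SOCS1, SOCS2 and CISH in PSN1 cells and STAT5A in SW1990 cells stayed under 1 FPKM in every control library. They passed the filter through treated arms alone, so their calls describe where they were high. STAT5A in PSN1 cells reached 6.53, 6.37 and 6.64 FPKM with the combination, against 1.15, 1.02 and 1.14 FPKM in control (1.84 ± 0.06, adjusted p = 6.4e-12). OSMR in SW1990 cells was at 2.20, 1.98 and 2.13 FPKM with the combination, against 6.13, 7.46 and 7.15 FPKM in control (-1.35 ± 0.07, adjusted p = 6.4e-10). SOCS3 was higher than control with the combination in PSN1 (1.17 ± 0.03) and KPC cells (0.62 ± 0.03) and lower in SW1990 cells (-0.79 ± 0.05). IL6ST in SW1990 cells (-0.25, adjusted p = 0.045) was not called without control replicate 2 or 3 or any single combination replicate, nor with no filter (0.12), median-ratio scaling (-0.18, adjusted p = 0.063) or eBayes without trend and robust (0.053). Socs1 in KPC cells (-0.26, adjusted p = 0.020) was not called without control replicate 1 or 3 or combination replicate 1, where it was -0.16, nor with no filter (adjusted p = 0.054).

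Tumours are bulk tissue, in which fewer cells of a type and less RNA per cell cannot be told apart, and their cell markers moved with treatment. The summed level of 6 epithelial markers was 840 to 1400 FPKM with the combination, 1440 to 2020 with RMC-6236, 2810 to 5150 with tazemetostat and 3110 to 3880 in control, so it fell with both RMC-6236 arms. The 8 fibroblast markers summed to 3240 to 3780, 2950 to 3930, 584 to 1310 and 846 to 1160 FPKM in the same order of arms, and the 8 macrophage markers to 516 to 776, 419 to 650, 224 to 346 and 283 to 339 FPKM. Acinar markers, from normal pancreas, summed to 70.3 to 2590 FPKM with the combination and 5.25 to 264 FPKM in the other arms, and neutrophil markers to 63.2 to 208 FPKM with the combination and 12.3 to 36.3 FPKM in the others. All 6, 8, 8, 6 and 6 markers of these lists reached 1 FPKM, as did 5 of 5 endothelial and 3 of 4 B cell markers, while 0 of 6 T cell markers did. Endothelial markers summed to 18.2 to 29.4 FPKM with the combination and 6.88 to 13.4 FPKM in the others. B cell markers summed to 1.32 to 7.31 FPKM with the combination and 0.316 to 2.66 FPKM in the others, which overlap. T cell markers were low, at 1.44 to 2.15 FPKM with the combination and 0.093 to 0.763 FPKM in the others. Part of the fibroblast, macrophage, neutrophil and acinar lists was also present in cultured KPC cells, as given above. The part of these shifts in the values below was not tested.

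In tumours RMC-6236 lowered Socs2 and Jak2 and raised Socs1 and Il6st. Socs2 was at 1.27, 1.82, 1.31 and 1.44 FPKM with RMC-6236, against 3.66, 3.42, 4.46 and 3.07 FPKM in control (-0.92 ± 0.12, adjusted p = 4.1e-05). Jak2 was at 12, 13.4, 10.3 and 10.3 FPKM with RMC-6236, against 16.8, 17.9, 20.2 and 19.9 FPKM in control (-0.66 ± 0.11, adjusted p = 0.0003). Both sets of ranges are apart, and in cultured KPC cells neither gene was called. Il6st rose to 10.8, 11.0, 10.9 and 10.3 FPKM, against 7.54, 8.06, 6.51 and 7.29 FPKM in control (0.49 ± 0.11, adjusted p = 0.0027). Socs1 rose to 11.0, 7.29, 13.6 and 7.38 FPKM, against 5.58, 7.03, 4.93 and 5.40 FPKM in control (0.65 ± 0.18, adjusted p = 0.011), where it had fallen in cultured KPC cells. The difference between culture and tumour was not tested, since the tables were normalized apart.

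Socs3 in tumours was at 49.9, 60.9, 35.9 and 29.4 FPKM with RMC-6236, against 62, 55.1, 64.4 and 64.5 FPKM in control, with overlapping ranges (-0.52 ± 0.18, adjusted p = 0.030). The call was lost without control replicate 1, 3 or 4 or RMC-6236 replicate 3 or 4 (adjusted p of 0.060 to 0.094), with no filter (0.072) and with only the compared arms (0.068). Jak1 was called at 0.21 ± 0.07 (adjusted p = 0.018), with 16.7, 19.3, 18.6 and 19.6 FPKM with RMC-6236 and 16.4, 15.5, 14.8 and 16.8 FPKM in control, but not without control replicate 3 (adjusted p = 0.061) or RMC-6236 replicate 4 (adjusted p = 0.053). Stat3, Stat5a, Osmr and Cish were not called, with intervals of -0.23 to 0.09, -0.11 to 0.33, -0.34 to 0.47 and -0.27 to 0.17.

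**Figure D5:**
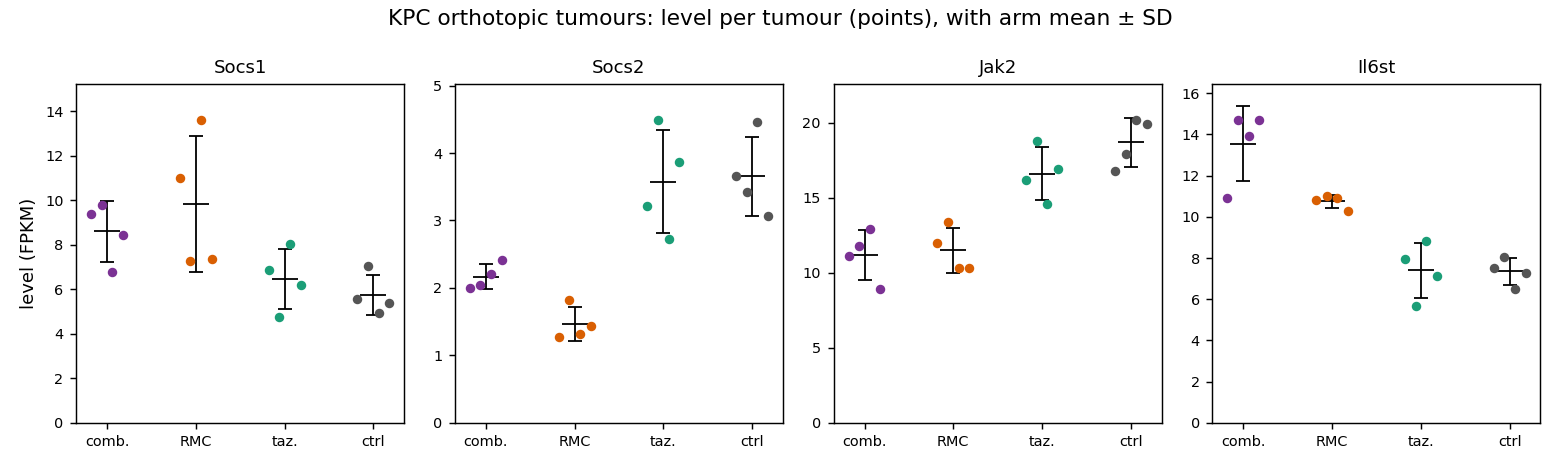
Level in FPKM (vertical axis) of Socs1, Socs2, Jak2 and Il6st in each KPC tumour grown in the pancreas, by arm: combination (comb.), RMC-6236 (RMC), tazemetostat (taz.) and control (ctrl). Points are tumours and black marks the mean ± SD. Socs2 and Jak2 are lower in both RMC-6236 arms than in control, with Jak2 at 11.2, 11.5, 16.6 and 18.7 FPKM from left to right, and Il6st is higher.

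The combination against control gave 7 calls among the 10 genes in tumours, 3 higher and 4 lower, where 52.4% of all genes were called (26.7% higher, 25.7% lower). Il6st had 10.9, 14.7, 13.9 and 14.7 FPKM with the combination, against 7.54, 8.06, 6.51 and 7.29 FPKM in control (0.80 ± 0.11, adjusted p = 3e-05), and Jak1 rose by 0.34 ± 0.07 (adjusted p = 0.00048). Jak2 (-0.70 ± 0.11, adjusted p = 7.7e-05) and Socs2 (-0.55 ± 0.12, adjusted p = 0.0012) fell. Stat3, which had risen in culture, was at 23.0, 24.0, 21.7 and 21.0 FPKM with the combination, against 26.9, 28.4, 26.2 and 27.4 FPKM in control (-0.27 ± 0.07, adjusted p = 0.0064). Socs1 (0.51, adjusted p = 0.030) was not called without control replicate 1, 3 or 4 or combination replicate 1, 2 or 4, nor with no filter (0.061). Socs3 (-0.49, adjusted p = 0.031) was not called without control replicate 1, 3 or 4 or combination replicate 3 or 4, nor with no filter (0.063) or median-ratio scaling (0.053). Cish was not called (0.24, adjusted p = 0.062). It was called higher without control replicate 2 (adjusted p = 0.037) or combination replicate 3 (0.035), and with eBayes without trend and robust (0.047). The count of calls was 5 to 9 when a library was left out.

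Tazemetostat against control gave 0 calls in tumours by limma, among the 10 genes and among all 13545 genes tested (0%). At an unadjusted p under 0.05 there were 1 of the 10 genes and 1023 of all genes. Combination against RMC-6236 gave 0 calls among the 10 genes, where 8.13% of all genes were called (5.16% higher, 2.97% lower), with 4 of the 10 and 3010 of all genes at an unadjusted p under 0.05. The interaction gave 0 calls, against 1.86% of all genes (1.49% higher, 0.369% lower), with 1 of the 10 and 1950 of all genes at an unadjusted p under 0.05. Without trend and robust options limma also gave 0 calls among the 10 genes in each of these 3 contrasts. Socs3 had 51.4, 49.6, 35.4 and 39.1 FPKM with the combination and 49.9, 60.9, 35.9 and 29.4 FPKM with RMC-6236 (0.03 ± 0.18, interval -0.35 to 0.41), with overlapping ranges. Socs2 had 2, 2.05, 2.20 and 2.42 FPKM with the combination and 1.27, 1.82, 1.31 and 1.44 FPKM with RMC-6236, ranges that are apart (0.37 ± 0.12, adjusted p = 0.068), and without RMC-6236 replicate 2 it was called (0.44, adjusted p = 0.043). Other genes were called when 1 library was left out: Stat3 (-0.26, adjusted p = 0.048) without RMC-6236 replicate 3, and Il6st (0.40, adjusted p = 0.036) without combination replicate 1.

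Other genes of the pathway were read from lists of ligands, receptors, kinases and factors, inhibitors, and STAT3 targets. Counts of calls with RMC-6236 stand against 45.8% higher and 34.6% lower among all genes in PSN1 cells, 30.7% and 41.7% in SW1990 cells, 37.9% and 35.8% in KPC cells, and 20.3% and 19.2% in tumours. The counts are descriptions to be read against these shares. Among gp130 ligands RMC-6236 lowered 4 and raised 1 of 5 tested in PSN1 cells (median -0.77, against 0.08 over all genes), 3 and 1 of 4 in SW1990 cells (-0.68, against -0.06), 1 and 2 of 3 in KPC cells (0.31, against 0.02) and 3 and 1 of 6 in tumours (-0.45, against 0.01). LIF, a ligand of the LIFR and gp130 pair, fell in all 4 tables, with changes of -1.04 in PSN1 cells, -1.79 in SW1990 cells, -2.18 in KPC cells and -0.72 in tumours. IL11, another gp130 ligand, was at 0.324 ± 0.084 FPKM with RMC-6236 in PSN1 cells, against 4.86 ± 0.27 FPKM in control, and fell by 2.15. With RMC-6236 it lay under 1 FPKM and passed the filter through other arms. Its call, counted among the lowered ligands, therefore describes where IL11 was high. Clcf1 rose by 0.76 in KPC cells and fell by 0.82 in tumours.

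Cytokine receptors rose with RMC-6236 in 10 of 16 tested in PSN1 cells with 4 lower (median 0.38, against 0.08 over all genes), 9 of 16 in SW1990 cells with 5 lower (0.26, against -0.06), 10 of 12 in KPC cells with 1 lower (0.49, against 0.02) and 11 of 16 in tumours with 1 lower (0.38, against 0.01). IL4R, the interleukin 4 receptor chain, changed by -1.09 in PSN1 cells and by -1.59 in SW1990 cells, where IL6R, the interleukin 6 receptor chain, rose by 1.72. Lifr rose by 1.44 in KPC cells and by 0.85 in tumours. Il2rg, the common gamma chain of lymphoid and myeloid cells, rose by 1.34 in tumours, beside the macrophage sums given above. The other JAK and STAT genes rose in 5 of 5, 3 of 5 with 1 lower, 6 of 6, and 3 of 6 with 2 lower in PSN1, SW1990 and KPC cells and tumours, with medians of 0.47, 0.47, 0.33 and -0.11, against 0.08, -0.06, 0.02 and 0.01 over all genes. In the cell lines that is 5 of 5, 4 of 5 and 6 of 6 called, where 80.4%, 72.4% and 73.7% of all genes were. STAT2, a factor of the type I interferon response, rose by 1.71 in PSN1 cells, 1.54 in SW1990 cells and 0.54 in KPC cells, and changed by -0.38 in tumours. Other inhibitors had 3 higher and 3 lower of 13, 3 and 5 of 13, 4 and 8 of 14, and 4 and 3 of 15, with medians of -0.05, -0.05, -0.18 and -0.05. In PSN1 cells 6 of 13 were called, where 80.4% of all genes were. SH2B3, an adaptor that restrains JAK2, fell in all 4 tables, with changes of -1.37, -0.77, -0.56 and -0.51.

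STAT3 targets with RMC-6236 had 18 higher and 7 lower of 25 in PSN1 cells (median 0.49, against 0.08 over all genes), 10 and 7 of 19 in SW1990 cells (0.14, against -0.06), 8 and 9 of 20 in KPC cells (0.01, against 0.02) and 4 and 5 of 21 in tumours (-0.13, against 0.01). The shares of all genes called were 80.4%, 72.4%, 73.7% and 39.4%. The list includes MYC, CCND1 and JUNB, which are also ERK targets. Combination against RMC-6236 gave its largest rise in the list in PSN1 cells for SAA1, serum amyloid A, at 3.24. FGB, the fibrinogen beta chain, was at 303 ± 2.0 FPKM with the combination in PSN1 cells and 66.6 ± 1.9 FPKM with RMC-6236 (2.17 ± 0.03), with 25.3 ± 1.1 FPKM with tazemetostat and 9.07 ± 0.38 FPKM in control. Serpina3n, a serine protease inhibitor, was at 37.7 ± 1.6 FPKM with the combination in KPC cells and 1.48 ± 0.28 FPKM with RMC-6236 (3.97 ± 0.10), and Lrg1, a secreted glycoprotein, at 14.9 ± 0.69 and 0.647 ± 0.22 FPKM (3.28 ± 0.09). Lrg1 lay under 1 FPKM with RMC-6236 and passed the filter through other arms, so its call describes where it was high. Serpina3n belongs to a cluster of near-identical genes, so its reads may be shared. In tumours Serpina3n was at 70.6 ± 30 FPKM with the combination and 11.1 ± 2.5 FPKM with RMC-6236 (2.51 ± 0.47, adjusted p = 0.0049), beside the acinar and neutrophil sums given above. Combination against RMC-6236 gave 20 higher and 4 lower of 25 in PSN1 cells (median 0.35, against -0.03 over all genes), 11 and 3 of 19 in SW1990 cells (0.22, against 0.04), 11 and 5 of 20 in KPC cells (0.14, against -0.04) and 4 and 0 of 21 in tumours (0, against 0). The shares of all genes called were 54.2%, 48%, 48.8% and 8.13%.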

How the data were processed

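Libraries came from total RNA by a strand-preserving mRNA kit and were read on a NovaSeq, per the labels' protocols. The submitters' processing notes name STAR 2.5.3a, StringTie 1.3.1c and FastQC 0.11.2, without roles, and list hg38 for every sample, while the mouse tables carry mouse Ensembl IDs, so the mouse build is not given in the sources used here. The strand setting in counting is not stated either. The authors deposited FPKM values, 1 table per model, which were used as deposited, with 0 value columns unmapped. FPKM keep no read totals, so depth is unknown and precision is read from the spread between samples.

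Values were taken to log2(FPKM + 1) and fitted per table with limma 3.58.1 in R 4.3.3 (1 mean per arm, eBayes with trend and robust, two-sided, Benjamini-Hochberg over all genes tested). Genes needed 1 FPKM in at least 3 libraries (cells) or 4 (tumours). There were 5 contrasts per table. The fit was tested on simulated data. Intervals are 95% and not adjusted. Members and lists were chosen with earlier results of these data known. The text names all 10 members and up to 4 called genes with the largest change per list, table and contrast. FGB, LIF, IL11 and the others named from lists follow that rule. STAT5B is an exception, named as the paralog of STAT5A after its values were seen. Promoter windows come from RefSeq (GRCm38.p6). Alternatives were a pseudocount of 0.1, no filter, median-ratio scaling, the replicate number as a block, only the compared arms, eBayes without trend and robust, and leaving out each library.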

Additional observations from a re-analysis of the deposited data

Results flagged for a closer look

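In 15 of 37 interaction tests on the members the effect of RMC-6236 differed with and without tazemetostat at an adjusted p under 0.05 by limma. Over all genes tested the share was 23.6% in PSN1, 15.2% in SW1990 and 25.8% in KPC cells, and 1.86% in tumours. Leaving out a library ended the PSN1 calls for STAT5A and JAK2 in 9 and 6 of 12 fits. The SW1990 call for JAK1 was lost in 5 of 12. In PSN1 cells the log2 differences were 0.15 for STAT3, 0.25 for STAT5A, 0.18 for JAK1, 0.24 for JAK2 and -0.22 for IL6ST. In SW1990 cells they were 1.01 for SOCS3, 0.53 for STAT3 and 0.27 for JAK1. In KPC cells they were -0.68 for Socs2, 0.74 for Socs3, 0.19 for Stat3, 0.34 for Stat5a, 0.40 for Jak2, 0.46 for Osmr and 0.26 for Il6st. A positive value means that the RMC-6236 effect was more positive with tazemetostat.

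Among 40 sets of 4 tumours (10 genes in 4 arms), 2 had a tumour far from the others, and chance gives about 1 in 20. Combination replicate 2 had 5.41 FPKM of Osmr, against 4.62 to 4.68 FPKM in the other combination tumours. Control replicate 2 had 5.43 FPKM of Osmr, against 2.98 to 3.30 FPKM in the other control tumours. Without control replicate 2, Osmr was called higher with the combination than in control (0.51, adjusted p = 0.026).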

How the results depend on the processing

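Of 2511 recomputed changes of single members, 2401 kept their call, 88 lost it, 22 gained one and none with a call changed sign. Another 58 changed sign without a call in either setting. Counts of members called stayed within 1.5 times of those in the report apart from the following. The PSN1 interaction count of 5 became 3 with no filter on low values, and 3 to 5 when a library was left out: it was 3 without control replicate 3, tazemetostat replicate 1 or 3, or combination replicate 3. There STAT5A was not called in 9 of 12 fits that left out a library (adjusted p of 0.004 to 0.086), JAK2 in 6 of 12 (0.0041 to 0.06), and JAK1 in SW1990 cells in 5 of 12 (0.017 to 0.078). With a pseudocount of 0.1 the STAT5A interaction in PSN1 cells was 0.14 (adjusted p = 0.44), and SOCS1 (-0.76) and SOCS2 (-0.66) were called there. The SW1990 tazemetostat count of 2 became 4 after median-ratio scaling, with IL6ST and STAT3 called. The KPC cell tazemetostat count of 5 ranged from 3 to 5 with a library left out. The tumour count of 0 for the combination against RMC-6236 became 1 (Socs2) with a pseudocount of 0.1 and with only the compared arms in the fit, and 0 to 1 with a library left out. After median-ratio scaling the higher share of all genes called went to 51.3%, against 41.5% as deposited, for the PSN1 interaction, and to 51.9%, against 44.4%, for the combination against RMC-6236 in PSN1 cells. For that contrast it went to 54.4%, against 62%, in SW1990 cells, to 48.3%, against 41.6%, in KPC cells and to 70.7%, against 63.5%, in tumours. With tazemetostat it went to 54.6%, against 61.7%, in SW1990 cells and to 49.6%, against 42.2%, in KPC cells. The tumour interaction share went to 88.9%, against 80.2%. The causes were not tested. With the replicate block the member calls that differed were STAT5A in the PSN1 interaction (0.25, adjusted p = 0.058), which was lost, and IL6ST in SW1990 cells with tazemetostat (0.28, adjusted p = 0.038), which was gained. After removal of arm means, same-numbered samples correlated at -0.05 to 0.16 in PSN1, -0.16 to 0.39 in SW1990 and -0.09 to 0.13 in KPC cells. In tumours the range was -0.40 to 0.34. With few libraries per arm these values cannot decide whether the numbers pair the samples. Depth is unknown, which limits statements on genes under 1 FPKM.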

Other observations

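The genes whose log2(FPKM + 1) followed SOCS3 most closely over the libraries of a table differed between models. Pearson's r is a description here: libraries of an arm share a treatment, and no p is given. In PSN1 cells, over 12 libraries and 7059 genes, they were VPS41 (r = 0.997), GM2A (0.996) and NPC2 (0.996), genes of lysosomal traffic and lipid handling. In SW1990 cells, over 6557 genes, they were TAP2, a peptide transporter of antigen presentation (0.988), BID, a BH3-only protein (0.98), and the mitochondrial iron carrier SLC25A37 (0.978). In KPC cells, over 7234 genes, they were lactate dehydrogenase Ldha (0.987), Lrg1 (0.985) and the ferritin receptor Scara5 (0.983). In tumours, over 16 libraries and 7442 genes, they were the immediate early genes Egr1 (0.924), Ier2 (0.902) and Nr4a1 (0.896).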
